A study of Mus musculus with 12 samples.

Results

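The genes described here are those that the study listed as bound by Chd7 in oligodendrocyte precursor cells (OPCs) and not in mature oligodendrocytes. All 4226 symbols of that column in the authors' deposited table of Chd7-bound genes were matched, without regard to letter case, to the gene names of the deposited RNA table. Of these, 3855 were measured (91.2%), which is 27.3% of the 14107 genes in the table. The other 371 symbols were not among its names, and 14 of them have another RefSeq name that is. Binding put the genes on the list, and RNA levels did not enter the choice. Against them stand 1699 measured genes listed as bound in both OPCs and oligodendrocytes, 1101 listed in oligodendrocytes only, and 7452 that stand in no Chd7 column.

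Chd7 encodes an ATP-dependent chromatin remodeller of the CHD family. Such enzymes use ATP to slide or evict nucleosomes at enhancers and promoters, and mutations of human CHD7 cause CHARGE syndrome. Chd8 is a related remodeller, and human CHD8 is an autism risk gene. OPCs are dividing glial cells that leave the cell cycle and turn into oligodendrocytes, which make myelin. The binding lists hold gene names without peak positions, heights or scores, and how a Chd7 site was tied to a gene is not stated there.

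RNA was measured in 5 Chd7iKO and 7 Control libraries of O4-positive cells from cortex and corpus callosum of pups at postnatal day 7, sorted with magnetic beads. O4 is a surface antigen of late precursors and immature oligodendrocytes. The Chd7iKO pups carried PDGFRaCre with both Chd7 alleles floxed (Chd7flox/flox), so that Cre was driven by the promoter of Pdgfra, a gene of OPCs. The Controls were littermates with Chd7flox/flox and no Cre, and no group had Cre without floxed Chd7. Tamoxifen at 20 mg/ml was injected subcutaneously in both genotypes, in a volume of 40 µl on day 1 and 30 µl on day 4 after birth. The number of pups behind a library was not stated, and p-values therefore measure the spread between these libraries, which may be technical in part. Libraries held 30384507 to 35512311 estimated counts, and values are given as CPM, counts scaled to library size by TMM.

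Chd7 itself is listed in OPCs and oligodendrocytes and is not one of the genes described. Its transcript stood at 242 ± 28.9 CPM in Chd7iKO libraries (SD, n = 5) and at 236 ± 30.9 CPM in Control libraries (SD, n = 7; two-sided exact permutation test over all splits, p = 0.78). The values sum the whole gene and do not check the deletion of the floxed part, whose place was not stated. The sorted cells were of the oligodendrocyte lineage by their markers, with Pdgfra at 4390 to 5124 CPM in Chd7iKO and 4998 to 5924 CPM in Control libraries. Sox10, a transcription factor of the lineage, was at 678 to 805 CPM in Chd7iKO and 860 to 1260 CPM in Control libraries, so that each Chd7iKO library lay below each Control. Markers of other cells were present as well. Of 24 microglial markers 16 were higher and 0 lower in Chd7iKO libraries (edgeR), their sum was 873 to 1111 CPM in Chd7iKO and 439 to 993 CPM in Control libraries, and none was at 0 in any library. Endothelial markers summed to 1025 to 1650 CPM in Chd7iKO and 1024 to 1449 CPM in Control libraries, with 10 of 21 higher, 1 lower and none at 0. Their median log2 fold change was 0.65. The sums include the 1 lower gene, Mfsd2a, at 225 to 304 CPM in Chd7iKO and 339 to 538 CPM in Control libraries. Chd7iKO 4 and 5 had the highest sums of both lists. Mural and fibroblast markers (11 of 18 higher, 0 lower), astrocyte markers (1 higher and 2 lower of 21) and neuron markers (4 higher and 4 lower of 25) overlapped in their sums between the groups. Counts of each list with the mean level of the astrocyte, neuron, microglial and endothelial markers as a covariate are given with that list. Mural and fibroblast markers, with a median log2 fold change of 0.87, are not in this covariate of other cell types' markers. In bulk RNA, fewer cells of a type and less RNA per cell cannot be told apart. Chd7iKO 1 stood apart from the other Chd7iKO libraries in 12 of the 91 genes selected for naming, mostly above them.

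The sequences just upstream of 6 genes among the 8 largest rises and 8 largest falls, chosen after their values were seen, are shown because they span CpG-poor and CpG-rich starts. They come from RefSeq on build GRCm38.p6, end at the base before the annotated gene, and run 5′ to 3′ on the gene's strand with CpG dinucleotides in capitals. Whether Chd7 was bound in these windows is not recorded in the gene lists. Among genes that rose, the bases before Megf6 (chr4:154170504-154170703, plus strand) hold 10 CpGs, those before Galnt6 (chr15:100729377-100729576, minus strand) 19, and those before Gtse1 (chr15:85859491-85859690, plus strand) 11.
Megf6: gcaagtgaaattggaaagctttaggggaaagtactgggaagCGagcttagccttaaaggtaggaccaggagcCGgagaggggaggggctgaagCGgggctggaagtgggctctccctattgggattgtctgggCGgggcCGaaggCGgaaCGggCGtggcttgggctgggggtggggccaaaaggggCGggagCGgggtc
Galnt6: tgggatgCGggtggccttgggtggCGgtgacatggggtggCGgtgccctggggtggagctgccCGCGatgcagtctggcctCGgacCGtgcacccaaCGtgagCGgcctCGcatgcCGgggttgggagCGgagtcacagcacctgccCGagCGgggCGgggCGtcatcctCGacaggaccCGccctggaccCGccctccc
Gtse1: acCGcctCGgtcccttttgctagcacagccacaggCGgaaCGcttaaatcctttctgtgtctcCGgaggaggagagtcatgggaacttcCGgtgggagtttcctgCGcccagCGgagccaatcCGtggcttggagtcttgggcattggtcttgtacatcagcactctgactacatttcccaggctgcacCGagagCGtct
Among genes that fell, the bases before Olfm3 (chr3:114903878-114904077, plus strand) hold 4 CpGs, those before Slitrk6 (chr14:110755205-110755399, minus strand) 3, and those before Chst2 (chr9:95407271-95407470, minus strand) 24.
Olfm3: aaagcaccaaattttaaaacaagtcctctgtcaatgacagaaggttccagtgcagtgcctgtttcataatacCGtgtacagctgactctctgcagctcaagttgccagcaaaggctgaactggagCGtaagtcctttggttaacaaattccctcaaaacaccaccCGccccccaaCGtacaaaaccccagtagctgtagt
Slitrk6: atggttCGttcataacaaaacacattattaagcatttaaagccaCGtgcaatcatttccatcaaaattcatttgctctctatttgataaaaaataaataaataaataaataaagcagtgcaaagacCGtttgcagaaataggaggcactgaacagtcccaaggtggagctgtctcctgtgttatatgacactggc
Chst2: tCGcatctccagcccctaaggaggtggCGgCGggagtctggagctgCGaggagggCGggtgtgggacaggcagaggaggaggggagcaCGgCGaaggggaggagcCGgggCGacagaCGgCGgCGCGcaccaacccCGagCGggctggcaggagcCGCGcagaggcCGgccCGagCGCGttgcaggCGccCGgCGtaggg
The GC content of the stretches is 63.5% for Megf6, 73.5% for Galnt6 and 57.5% for Gtse1, and 47% for Olfm3, 35.4% for Slitrk6 and 75.5% for Chst2, so that the falls include both CpG-poor and CpG-rich upstream sequence.

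Which of the genes bound in OPCs only differ in RNA after Chd7 deletion was asked with edgeR's quasi-likelihood test over all 14107 genes, with an adjusted p under 0.05 as threshold. Of the 3855 genes, 505 were higher in Chd7iKO libraries (13.1%, against 15.8% of all genes tested) and 495 were lower (12.8%, against 13.8%). Together 1000 passed (25.9%, against 29.5%), and 2855 did not. Both shares were thus close to, and below, those of the table as a whole. Of the unlisted genes 29.6% passed (17.7% higher and 11.9% lower), and in each of the 27 alternative settings tried the share that passed was smaller for the genes bound in OPCs only. The settings use the same libraries and are not independent. Those without a filter on low counts, with case-sensitive matching or without symbols of another column only repeat the main counts. The difference between the shares was not tested. Every Chd7iKO library lay above every Control for 205 genes (5.32%, against 6.2% of all genes and 6.7% of unlisted genes) and below every Control for 223 (5.78%, against 6.32% and 5.26%).

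The changes were moderate. Among the 1000 genes past the threshold the median absolute log2 fold change was 0.32, against 0.42 over all genes that passed, and 29 were at least 2-fold higher and 6 at least 2-fold lower. The median log2 fold change of the 3855 genes was -0.003, against 0.001 over all genes tested and 0.011 over unlisted genes. In the genes that rose, the median difference from the Control mean was 0.33 to 0.53 on the log2 scale in single Chd7iKO libraries and -0.10 to 0.17 in single Controls, with Control 6 the highest Control. In the genes that fell it was -0.32 to -0.23 in Chd7iKO libraries and -0.11 to 0.07 in Controls. These last values describe genes chosen by the same contrast and test nothing. Chd7-bound genes shared with oligodendrocytes differed from this pattern in 1 direction: 403 of 1699 were lower (23.7%) and 220 higher (12.9%). Their median level was 65.1 CPM, against 41.6 CPM for the genes bound in OPCs only, and these shares were not matched for level. Genes bound in oligodendrocytes only had 16.6% higher and 14.2% lower. Left out in turn, Chd7iKO 5 moved the counts most, to 331 higher and 309 lower, and without Chd7iKO 4 and 5 together they were 215 and 185. Scaled to library totals, the split was 594 higher and 360 lower. With the mean level of the astrocyte, neuron, microglial and endothelial markers as a covariate, 140 were higher and 126 lower (6.9%, against 8.33% of unlisted genes).

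The genes bound in OPCs only were more highly expressed than unlisted genes, with median levels of 41.6 and 20.7 CPM, so the shares were also compared within 10 bins of mean level with equal numbers of genes of the table. Unlisted genes weighted to the same levels had 15.5% higher and 14% lower. Their weighted median log2 fold change was -0.012, against -0.003 for the genes bound in OPCs only. In 9 of the 10 bins (all but bin 8, 9.92% against 9.84%) the share higher was smaller for the genes bound in OPCs only, with the widest gap in bin 2 (2.91 to 7.09 CPM), at 14.6% of 254 genes against 25.6% of 973 unlisted genes. The share lower was smaller in 8 of the 10. In bins 9 and 10, above 95 CPM, it was 18.6% and 21%, against 16.4% and 17.2% of unlisted genes.

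**Figure D1:**
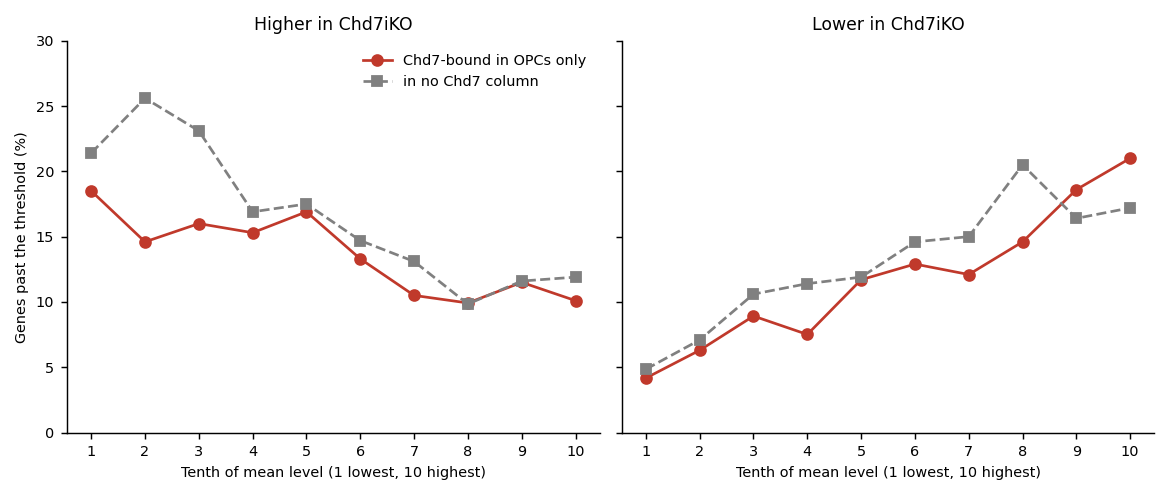
Percentage of genes past the threshold (edgeR adjusted p under 0.05) in each of 10 bins of mean CPM, for genes Chd7-bound in OPCs only (red circles) and genes in no Chd7 column (grey squares), higher in Chd7iKO on the left and lower on the right. In bin 2, 14.6% of the genes bound in OPCs only and 25.6% of the unlisted genes were higher, and in bin 10, 21% and 17.2% were lower.

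The largest rise was in Megf6, which encodes a protein with many EGF-like repeats (chromosome 4, 154170704 to 154275721, GRCm38). It had 61.2, 60.3, 66.5, 59.3 and 77.5 CPM in the Chd7iKO libraries, against a lowest value of 9.04, a median of 13.3 and a highest value of 23.5 CPM in Controls. The groups did not overlap, and Megf6 rose by 2.17 on the log2 scale (SE 0.18; 9.24e-06 was the adjusted p from edgeR). Galnt6, an enzyme that starts mucin-type O-glycosylation (chromosome 15, 100689915 to 100729376), had 52.9, 40.8, 40.9, 35.7 and 43.8 CPM in Chd7iKO libraries, against 11.9 to 21.8 CPM (median 12.6) in Controls. It rose by 1.51 on the log2 scale (SE 0.17, edgeR adjusted p = 6.65e-05), again without overlap. Nfkb2, which encodes the p100 precursor of non-canonical NF-κB, had 25.6, 20.1, 23.8, 20.1 and 22.3 CPM in Chd7iKO libraries, against 4.1 to 8.94 CPM (median 5.23) in Controls. Every Chd7iKO library lay above the highest Control (log2 fold change 1.83, SE 0.19).

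Gtse1, a microtubule-associated protein of G2 that also restrains p53, had 39.1, 40.1, 43.2, 37.7 and 42.9 CPM in Chd7iKO libraries, against 12.7 to 21.9 CPM (median 15) in Controls, and its adjusted p was 8.07e-06 (edgeR, log2 fold change 1.38, SE 0.11). Control 6 was the high Control there. The immediate early gene Arc, known for its role at synapses, rose by 1.86 (SE 0.29), with 16.3 to 31.8 CPM in Chd7iKO and 3.44 to 11.6 CPM in Control libraries. The neuropeptide precursor gene Vgf rose by 1.45 on the log2 scale and was scarce (4.84 ± 0.763 CPM in Chd7iKO, n = 5, and 1.77 ± 0.668 CPM in Control libraries, n = 7, SD). Meox1, a homeobox gene of embryonic mesoderm, rose by 1.40 (SE 0.30), and it was the only gene of these 8 whose groups overlapped, with 12.8, 14.4, 21.7, 26.4 and 25.8 CPM in Chd7iKO and 3.69 to 14.9 CPM in Control libraries. The Meox1 call was lost without Chd7iKO 4 and 5 (edgeR adjusted p = 0.0591) and with the covariate of other cell types' markers (0.0992).

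Gt(ROSA)26Sor, the non-coding transcript of the Rosa26 locus on chromosome 6, into which transgenes are often placed, had 19.1, 26.6, 26.9, 23.3 and 23.9 CPM in Chd7iKO libraries. Its Controls did not form a single group: Control 3 had 12.4 and Control 6 had 18.5 CPM, while the other Controls had 0.901 to 5.4 CPM. The groups did not overlap (log2 fold change 1.85, SE 0.56, edgeR adjusted p = 0.0247). Without Controls 3 and 6 it was 2.95 (edgeR adjusted p = 0.000399), and the call was lost without Chd7iKO 2 or Chd7iKO 5 (0.0522 and 0.052) and without Chd7iKO 4 and 5 together (0.0942), and with the covariate (0.208). Controls 3 and 6 were also the highest Controls in 5 of the 8 largest rises and the lowest in 2 of the 8 largest falls. The labels name no allele at that locus.

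The largest fall was in Olfm3, a secreted olfactomedin glycoprotein of the brain (chromosome 3, 114904078 to 115125764). It had 6.41, 6.05, 6.88, 6.01 and 4.72 CPM in Chd7iKO libraries, against 13.1 to 22.5 CPM (median 18.6) in Controls. All Chd7iKO libraries lay below all Controls (log2 fold change -1.58, SE 0.14, edgeR adjusted p = 1.72e-05). Slitrk6, a leucine-rich repeat membrane protein of neurons (chromosome 14, 110747338 to 110755204), had 5.76, 4.61, 5.45, 4.3 and 4.25 CPM in Chd7iKO libraries, against 10.9 to 17.5 CPM (median 14.7) in Controls. It fell by 1.55 on the log2 scale (SE 0.12, edgeR adjusted p = 8.07e-06), without overlap. Fam19a2, a secreted chemokine-like protein that RefSeq names Tafa2, had 15.6, 11.7, 13.4, 13.2 and 12.7 CPM in Chd7iKO libraries, against 23.8 to 35 CPM (median 29.7) in Controls, and fell by 1.13 (SE 0.10).

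Vstm2a, a secreted immunoglobulin-domain protein, had 11.5 to 18 CPM in Chd7iKO and 23.6 to 40.6 CPM in Control libraries (log2 fold change -1.09, SE 0.14). Rerg, a small Ras-like GTPase (-1.05, SE 0.16), the arginine methyltransferase gene Prmt8 (-0.97, SE 0.15) and Caly, which encodes a vesicle trafficking protein of neurons (-0.95, SE 0.13), also fell without overlap between groups. Chst2, a sulfotransferase for carbohydrate chains (chromosome 9, 95400926 to 95407270), differed from these. It had 307, 187, 138, 163 and 167 CPM in Chd7iKO libraries and 562, 292, 612, 483, 480, 169 and 175 CPM in Controls 1 to 7. Controls 2, 6 and 7 lay within the range of the Chd7iKO libraries, and the fall (-1.04, SE 0.33, edgeR adjusted p = 0.0313) did not pass in 8 fits that left out Control 1, 3, 4 or 5 or any Chd7iKO library but Chd7iKO 1 (0.0525 to 0.0774), nor with the covariate (0.323).

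**Figure D2:**
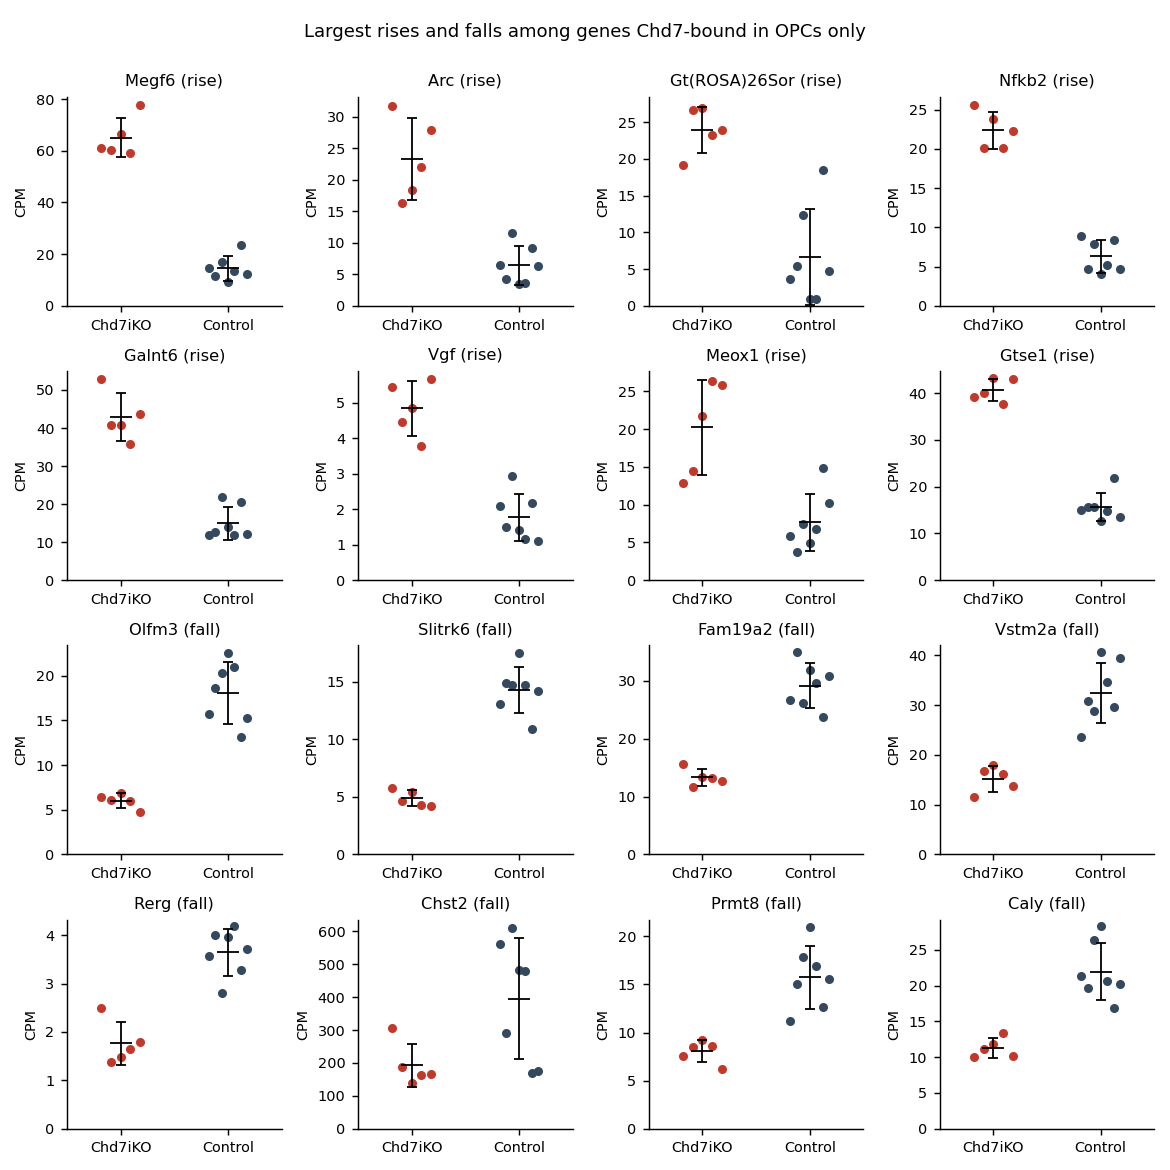
CPM in each Chd7iKO (red, left, n = 5) and Control library (blue, right, n = 7) for the 8 largest rises and 8 largest falls past the threshold, with mean and SD as bars and every axis starting at 0. The groups do not overlap in 7 of the 8 rises and 7 of the 8 falls. Meox1 and Chst2 overlap.

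Cell cycle genes rose together. Of the 18 S phase genes that are bound in OPCs only, 17 rose and 0 fell (median log2 fold change 0.71), and of 22 genes of G2 and mitosis 21 rose and 0 fell (median 0.75). Over all measured genes of the same lists, bound or not, 53 of 55 and 71 of 73 rose (medians 0.72 and 0.75). Over the measured genes of these lists outside the genes bound in OPCs only, 36 of 37 and 50 of 51 rose. Rrm2, the small subunit of ribonucleotide reductase, had 114, 161, 178, 163 and 166 CPM in Chd7iKO libraries, against 44.3 to 124 CPM (median 69.3) in Controls (log2 fold change 1.10, SE 0.22, edgeR adjusted p = 0.00238). Chd7iKO 1 was the low Chd7iKO library and Control 6 the high Control, and they overlapped.

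Clspn, the checkpoint adaptor claspin, had 35.8, 40.9, 44.7, 37.7 and 42.1 CPM in Chd7iKO libraries, against 14.3 to 31.3 CPM (median 22.2) in Controls (0.93, SE 0.18), without overlap. The helicase gene Blm (0.68, SE 0.12) and the chromatin assembly factor subunit Chaf1a (0.81, SE 0.15) rose too. In mitosis, Kifc1, a kinesin that bundles spindle microtubules, had 46.8, 49.3, 47.8, 45.5 and 49.6 CPM in Chd7iKO libraries, against 22.2 to 34.4 CPM (median 27.1) in Controls (0.81, SE 0.09, edgeR adjusted p = 6.73e-05). The condensin subunit gene Ncapd2 had 216 to 252 CPM in Chd7iKO and 120 to 172 CPM in Control libraries (0.71, SE 0.08). Cdc20, which activates the anaphase-promoting complex (0.80), and the spindle protein gene Troap (0.89) also rose, and none of these 4 overlapped between groups. Citron kinase, Cit, named after its value was seen, did not pass (0.41, edgeR adjusted p = 0.0673).

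The mean level of the 22 mitosis genes was 5.79 to 6.08 log2 CPM in Chd7iKO and 4.9 to 5.6 log2 CPM in Control libraries, with no overlap. For the 18 S phase genes it was 4.96 to 5.44 and 4.12 to 5.05 log2 CPM, with Chd7iKO 1 below Control 6. Without Chd7iKO 4 and 5, 10 S phase and 18 mitosis genes rose, and without Controls 3 and 6 the counts were 17 and 21. Microglial markers were higher in Chd7iKO libraries as well (median log2 fold change 0.64). With the level of the other cell types' markers as a covariate, 3 S phase and 11 mitosis genes rose.

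Genes of the p53 pathway, through which damaged cells halt division or die, also rose. Of 18 that are bound in OPCs only, 11 rose and 1 fell (median log2 fold change 0.55), against 36 and 1 of 48 over the whole list (median 0.63). Aen, an exonuclease induced by p53, had 77.3, 75.6, 78, 74.2 and 79.8 CPM in Chd7iKO libraries, against 29.4 to 52.7 CPM (median 31.1) in Controls, with Control 3 the highest (log2 fold change 1.10, SE 0.12, edgeR adjusted p = 8.13e-05). Bax, the pore-forming protein of apoptosis, had 102, 105, 109, 96.8 and 107 CPM in Chd7iKO libraries, against 61.3 to 81.6 CPM (median 65.3) in Controls (0.60, SE 0.08). Tap1, a peptide transporter of antigen presentation that p53 also induces, had 19.5 to 22 CPM in Chd7iKO and 8.03 to 12.2 CPM in Control libraries (1.13, SE 0.10). The groups did not overlap in any of these 3 genes.

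The gene that fell is Rrm2b, a ribonucleotide reductase subunit named after its value was seen (-0.19, edgeR adjusted p = 0.0368); it kept its call when Control 1, Control 3 or Chd7iKO 4 was left out and lost it without any of the other 9 libraries. Mdm2, the ubiquitin ligase that degrades p53, did not pass (0.25, edgeR adjusted p = 0.0503). The mean level of the 18 genes was 5.59 to 5.8 log2 CPM in Chd7iKO and 4.97 to 5.36 log2 CPM in Control libraries. The count that rose was 11 both without Chd7iKO 4 and 5 and without Controls 3 and 6, and 10 with the other cell types' markers as a covariate. Of 9 apoptosis genes 3 rose and 0 fell: Bcl2 (0.38, SE 0.08) and Mcl1 (0.20, SE 0.05), which block apoptosis, and Dapk1, a kinase that promotes cell death (0.38, SE 0.10). The Dapk1 call was lost without Chd7iKO 5 (edgeR adjusted p = 0.0534), 5 of the 9 rose without Chd7iKO 1, and 1 rose without Chd7iKO 4 and 5. With the covariate 0 of them rose. In the whole list 11 of 35 rose and 0 fell.

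**Figure D3:**
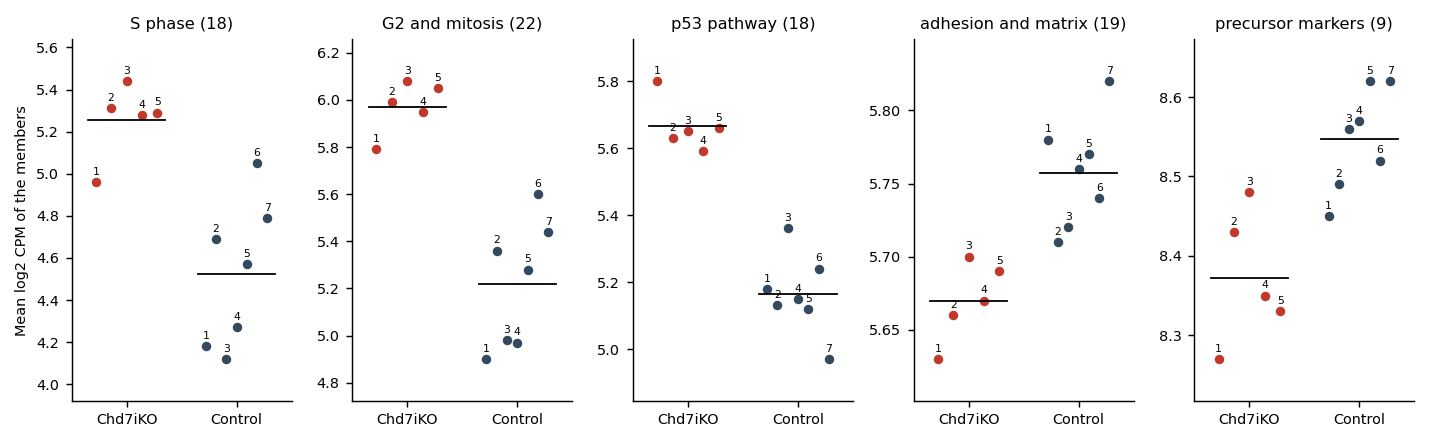
Mean log2 CPM of the genes bound in OPCs only of 5 lists in each library (Chd7iKO red on the left, Control blue on the right, numbered by replicate; the bar is the group mean; axes do not start at 0). Mitosis (5.79 to 6.08 against 4.9 to 5.6), p53 pathway and adhesion lists do not overlap between groups, while the S phase and precursor lists do.

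Among 9 OPC markers, 2 fell and 0 rose (median log2 fold change -0.16), against 20 of 36 in the whole list (median -0.28). Scrg1, a small secreted protein enriched in OPCs, had 136, 121, 126, 125 and 119 CPM in Chd7iKO libraries, against 167 to 216 CPM (median 204) in Controls. It lay below every Control in all Chd7iKO libraries (-0.65, SE 0.07, edgeR adjusted p = 3.24e-05). Pdgfra, the receptor that drives OPC division and whose promoter drives the Cre, had 4805, 4909, 5124, 4658 and 4390 CPM in Chd7iKO libraries, against 4998 to 5924 CPM (median 5487) in Controls. The groups overlapped, and the fall (-0.20, SE 0.07, edgeR adjusted p = 0.0341) did not pass in 7 fits that each left out Control 3, 4, 5 or 7 or Chd7iKO 2, 4 or 5 (0.053 to 0.0969), so that 1 marker of the list fell, as it did with the covariate.

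The other 7 markers did not pass. Olig2, the factor that specifies the lineage, had 718 ± 61.5 CPM in Chd7iKO (n = 5) and 811 ± 111 CPM in Control libraries (n = 7, SD; edgeR adjusted p = 0.163), and the fatty acid binding protein gene Fabp7 had 932 ± 137 and 902 ± 135 CPM. Dscam, Rlbp1, Matn4, Emid1 and Kcnk1 had log2 fold changes of -0.08, -0.16, -0.17, -0.09 and -0.11. Pik3r3 was the only member of the list of committed and newly formed oligodendrocytes and did not pass (-0.12, edgeR adjusted p = 0.234), while 23 of the 36 genes of that list fell, and all of those 23 stand outside the genes bound in OPCs only. Of 4 myelin genes, Tspan2, a tetraspanin of myelin (-0.37, SE 0.07), and the fatty acid elongase gene Elovl7 (-0.39, SE 0.08) fell, Galnt6 rose as given above, and Qdpr, which recycles tetrahydrobiopterin, did not pass (-0.18, edgeR adjusted p = 0.0536), though it did without Control 4 or Chd7iKO 3 (0.0299 to 0.0376). With the covariate 1 myelin gene rose and 1 fell, and in the whole list 7 of 38 rose and 9 fell.

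Transcription factors of the lineage moved in both directions, with 4 of 10 higher and 2 lower (median log2 fold change 0.21, against 10 and 13 of 49 and a median of 0.05 in the whole list). Without Chd7iKO 1, which had the highest mean level of this list, the median was 0.10. With the covariate 2 fell and 1 rose, and the 1 was Sox11 (edgeR adjusted p = 0.0441). The 4 genes that were higher in the main fit (Sall1, Rara, Egr1 and Etv4) did not pass with it (edgeR adjusted p = 0.0575 to 0.118). Sox8, a SoxE factor that acts with Sox10, had 302, 357, 343, 336 and 312 CPM in Chd7iKO libraries, against 426 to 584 CPM (median 513) in Controls (-0.63, SE 0.08, edgeR adjusted p = 0.000166). The retinoid X receptor gene Rxrg had 4.27 to 5.33 CPM in Chd7iKO and 6.42 to 8.52 CPM in Control libraries (-0.59, SE 0.11), and neither gene overlapped between groups. The zinc finger gene Sall1 had 79.4 to 91.7 CPM in Chd7iKO and 40 to 70.6 CPM in Control libraries (0.58, SE 0.11), without overlap, and the retinoic acid receptor gene Rara rose by 0.45 (SE 0.10).

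Egr1, an immediate early factor, had 788 to 883 CPM in Chd7iKO libraries and 355 to 893 CPM in Controls, with Control 3 above all Chd7iKO libraries (0.67, SE 0.19, edgeR adjusted p = 0.0173, and 0.0744 without Chd7iKO 4 and 5). Etv4, an ETS factor downstream of growth factor signals, rose by 0.30 (SE 0.09), and Klf6 (0.38), Sox11 (0.13), Klf9 (-0.11) and Smad7 (0.07) did not pass. Klf6 passed without Control 1 (edgeR adjusted p = 0.0445).

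Of 29 genes of Notch, BMP and Wnt signalling and other inhibitors of differentiation, 4 rose and 5 fell (median log2 fold change 0.00), against 19 and 10 of 85 in the whole list (median 0.03). The ligand Bmp7, which favours astrocytes over oligodendrocytes in culture, had 159, 166, 162, 169 and 175 CPM in Chd7iKO libraries, against 111 to 133 CPM (median 113) in Controls (0.50, SE 0.05, edgeR adjusted p = 4.30e-05). The BMP signal transducer gene Smad1 had 47.4 to 51.2 CPM in Chd7iKO and 54.5 to 61.8 CPM in Control libraries (-0.27, SE 0.05). The Notch effector gene Hey1 fell (-0.31, SE 0.05), and these 3 did not overlap between groups. Lingo1, a membrane inhibitor of differentiation, fell by 0.38 on the log2 scale (SE 0.09). Its call was lost without Chd7iKO 4 and 5 (edgeR adjusted p = 0.0554), and without those libraries 2 of the 29 genes rose and 2 fell. Without Chd7iKO 5 alone 3 fell, and with the covariate 1 rose and 2 fell.

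Of 24 genes of growth factor and MAPK or PI3K signalling, 2 rose and 3 fell (median 0.02), against 17 and 7 of 78 in the whole list (median 0.04). Dusp6, a phosphatase that ERK signalling induces and that in turn inactivates ERK, had 115, 133, 131, 145 and 152 CPM in Chd7iKO libraries, against 65.3 to 113 CPM (median 90.6) in Controls (0.58, SE 0.12, edgeR adjusted p = 0.00356). Pdgfa, the main ligand of Pdgfra, had 17 to 18.4 CPM in Chd7iKO and 19.2 to 24.8 CPM in Control libraries (-0.35, SE 0.07), and Pdgfc, another PDGF ligand, fell by the same amount (-0.34, SE 0.10), a call lost without Chd7iKO 2 (edgeR adjusted p = 0.0577). The PI3K subunit gene Pik3r2 fell by 0.23. Left out in turn, Control 1 or Control 3 gave 4 that rose, Control 4 gave 1, and Chd7iKO 1 gave 5 that fell. With the covariate 0 rose and 0 fell.

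Adhesion and matrix genes fell more often than they rose, with 9 of 19 lower and 3 higher (median log2 fold change -0.23), against 39 and 20 of 102 in the whole list (median -0.10). The median was -0.13 without Control 1 and -0.15 without Control 6. Besides Slitrk6, the disintegrin gene Adam23 had 37.4, 37.9, 38.4, 39 and 34.7 CPM in Chd7iKO libraries, against 44.2 to 55.5 CPM (median 48.8) in Controls (-0.37, SE 0.06, edgeR adjusted p = 0.001). The secreted thrombospondin gene Thbs4 had 9.23 to 11.5 CPM in Chd7iKO and 4.69 to 8.89 CPM in Control libraries (0.69, SE 0.14), and the membrane-bound metalloproteinase gene Mmp15 rose at a high level, with 1378 ± 120 CPM in Chd7iKO (n = 5) and 1041 ± 108 CPM in Control libraries (n = 7, SD). Brevican, Bcan, a matrix proteoglycan of OPCs and astrocytes and among the 5 most abundant of the genes bound in OPCs only, had 1942, 1653, 1741, 1429 and 1528 CPM in Chd7iKO libraries, against 1625 to 2815 CPM (median 2082) in Controls. Its fall (-0.35, SE 0.12, edgeR adjusted p = 0.0378) did not pass in 8 fits that left out Control 3, 4, 5 or 7 or any Chd7iKO library but Chd7iKO 1 (0.0501 to 0.105). Without Chd7iKO 4 and 5, 4 genes of the list fell and 2 rose, and with the other cell types' markers as a covariate 4 fell and 1 rose.

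Of 15 guidance and migration genes 3 rose and 3 fell, against 19 and 12 of 71 in the whole list, and with the covariate 0 rose and 2 fell. Robo1, a receptor for Slit cues, had 102, 91.9, 96.3, 99.9 and 96.2 CPM in Chd7iKO libraries, against 117 to 162 CPM (median 139) in Controls (-0.50, SE 0.07, edgeR adjusted p = 0.000365). The chemokine receptor gene Cxcr4 had 24.5, 17.6, 19, 20.8 and 18.4 CPM in Chd7iKO libraries, against 8.27 to 14.9 CPM (median 13.2) in Controls (0.74, SE 0.15), and neither overlapped. Unc5a, a netrin receptor, fell (-0.35) and the plexin gene Plxnb2 rose slightly (0.15), a call lost without Chd7iKO 5 (edgeR adjusted p = 0.0516), when 1 of the 15 rose in all. Of 23 ion channels and transmitter receptors 1 rose and 2 fell, against 8 and 33 of 108 in the whole list. The number of the 23 that fell was 6 with DESeq2's test, 9 with limma voom and 0 with the covariate, so that it rests on the test and the model used. The potassium channel gene Kcnc1 had 82.4, 71.7, 71.7, 63.2 and 74 CPM in Chd7iKO libraries, against 39 to 56.1 CPM (median 46.2) in Controls (0.65, SE 0.08, edgeR adjusted p = 0.000134), and the kainate receptor gene Grik5 fell (-0.24). The number that fell was 1 without Control 4, 5 or 7 or Chd7iKO 2 or 3, 4 without Control 6 and 5 without Chd7iKO 1, and 2 rose without Chd7iKO 1.

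Of 134 measured chromatin regulators 42 are bound in OPCs only, and most of these did not pass: 4 rose and 3 fell (median log2 fold change 0.04), against 12 and 7 in the whole list (median 0.02). Eed, a core subunit of Polycomb repressive complex 2, had 28.7, 28.9, 31.2, 29.3 and 27.6 CPM in Chd7iKO libraries, against 20.8 to 25.3 CPM (median 24.7) in Controls (0.32, SE 0.07, edgeR adjusted p = 0.00315). Suz12, of the same complex, had 109 to 115 CPM in Chd7iKO and 83.8 to 108 CPM in Control libraries (0.19, SE 0.06), which did not pass when Control 4 or any of Chd7iKO 2, 3 and 5 was left out (edgeR adjusted p = 0.0537 to 0.0678). The BAF complex genes Smarca2 (-0.29, SE 0.08) and Smarcd1 (-0.26, SE 0.07) fell. The Smarcd1 call was lost without Chd7iKO 2 (edgeR adjusted p = 0.0509), and both were lost without Chd7iKO 4 and 5, when 1 of the 42 genes rose and 0 fell. Single libraries mattered too: 2 rose without Control 4, Chd7iKO 3 or Chd7iKO 4, 1 rose without Chd7iKO 2 or Chd7iKO 5, and 1 fell without Chd7iKO 2. With the covariate of other cell types' markers 1 chromatin regulator rose and 0 fell. Chd8 is itself bound in OPCs only and did not pass, at 163 ± 19.8 CPM in Chd7iKO (n = 5) and 164 ± 18.4 CPM in Control libraries (n = 7, SD; edgeR adjusted p = 0.938).

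**Figure D4:**
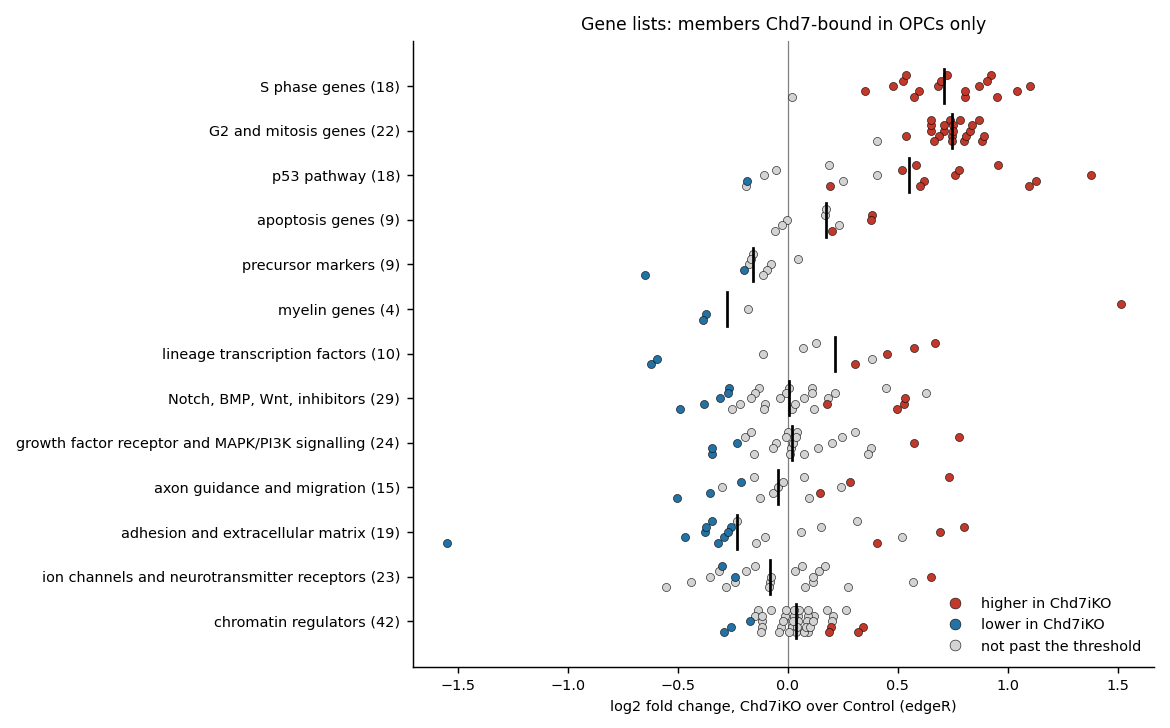
Log2 fold change (Chd7iKO over Control) of each gene bound in OPCs only, by list, with the number of genes in parentheses; red genes were higher and blue genes lower at an edgeR adjusted p under 0.05, grey genes did not pass, and the bar is the median. S phase and mitosis genes lie to the right of 0 (medians 0.71 and 0.75), and chromatin regulators lie around 0 (median 0.04).

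Of the 5 genes with the highest levels, Pdgfra and Bcan fell as given above and the other 3 did not pass. Eef1a1, a translation elongation factor, had 5929 ± 437 CPM in Chd7iKO (n = 5) and 5635 ± 371 CPM in Control libraries (n = 7, SD; log2 fold change 0.07, edgeR adjusted p = 0.463). The translation factor gene Eif4g2 (-0.10, edgeR adjusted p = 0.189) and Qk, which encodes the RNA-binding protein quaking, needed for myelination (-0.22, edgeR adjusted p = 0.0653), did not pass. Chd7iKO 1 had 2525 CPM of Qk and the other Chd7iKO libraries 1946 to 2027 CPM. Qk passed without Chd7iKO 1 or Control 6 (edgeR adjusted p = 0.0105 to 0.0486).

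A few genes bound in OPCs only are markers of other cells. Ptprc, the leukocyte antigen CD45, had 8.83 ± 1.59 CPM in Chd7iKO (n = 5) and 4.99 ± 2 CPM in Control libraries (n = 7, SD; log2 fold change 0.82, edgeR adjusted p = 0.0196), and lost its call without Chd7iKO 4 or 5 (0.0519 to 0.0565). Controls 6 and 7 had 7.82 and 7.75 CPM of Ptprc, and the other Controls 2.87 to 4.66 CPM. The endothelial lipid transporter gene Mfsd2a had 304, 291, 290, 264 and 225 CPM in Chd7iKO libraries, against 339 to 538 CPM (median 459) in Controls (-0.74, SE 0.12, edgeR adjusted p = 0.000516). It fell while 10 of the 21 endothelial markers rose, and all its Chd7iKO libraries lay below all Controls. The endothelial gene Cldn5 had 45.6 to 125 CPM in Chd7iKO and 33.4 to 71.1 CPM in Control libraries. Which cells the Mfsd2a RNA came from was not tested. Vwf, the other endothelial marker bound in OPCs only, rose (0.47, edgeR adjusted p = 0.0299), with overlap between groups. The Vwf call was lost without Control 4, Chd7iKO 4 or Chd7iKO 5 (edgeR adjusted p = 0.0574 to 0.105) and with the covariate (0.559). Vwf is itself among the markers that make up the covariate, so the fit with it cannot decide this call.

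The authors also deposited lists of Chd7-bound and Chd8-bound genes in OPCs. Of the genes bound by Chd7 in OPCs only, 3396 (88.1%) are listed as bound by Chd8 too. Of these 428 were higher (12.6%) and 435 lower (12.8%), and of the 459 without Chd8 77 were higher (16.8%) and 60 lower (13.1%), whose median level was lower as well (23.2 CPM, against 44.1 CPM with Chd8). Among those bound by both, the smallest p-values belonged to Gtse1 and Slitrk6, described above, Adam19, a membrane metalloproteinase (38.4 to 43.2 CPM in Chd7iKO and 22.8 to 26.5 CPM in Control libraries, 0.73, SE 0.06), and Smtn, smoothelin, a cytoskeletal protein of smooth muscle (41.6 to 48.1 and 22.3 to 27.4 CPM, 0.80, SE 0.07). The small GTPase gene Arl4a had 78.4 to 87.1 CPM in Chd7iKO and 126 to 169 CPM in Control libraries (-0.77, SE 0.07). The groups did not overlap in these 3 genes.

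Of 169 measured autism risk genes in the deposited sheet, 46 are bound in OPCs only, of which 3 were higher and 6 lower (19.6%, against 23.7% of all 169 and 29.5% of all genes). Those with the smallest p fell by little. Nckap1, a subunit of the WAVE actin regulator, had 605, 577, 581, 573 and 572 CPM in Chd7iKO libraries, against 655 to 753 CPM (median 703) in Controls (-0.28, SE 0.05, edgeR adjusted p = 0.000832). Rsu1, a Ras suppressor at focal adhesions (-0.20), Dync1i2, a dynein intermediate chain (-0.20), and Dcaf11, an adaptor of the CUL4 ubiquitin ligase (-0.27), fell too. The Dcaf11 call was lost without Chd7iKO 4 and 5 (edgeR adjusted p = 0.0626).

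The authors' deposited table of their own test gave 455 higher and 366 lower of the 3855 genes (21.3%, against 26.4% of all genes). Here 785 genes passed in both with the same direction. The authors' deposited table of regulated Chd7-bound genes holds 454 of the 3855 as up and 299 as down, of which 373 and 262 passed here in the same direction. A further 365 that passed here are not in that table, and their median absolute log2 fold change was 0.20.

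Promoter windows of 300 bases in RefSeq (250 before the start to 50 after, with the start listed first for genes with several) were matched to 3163 of the 3855 genes (82%). Their median GC content was 62.3%, and 79% had a GC content of at least 50% with a CpG observed over expected ratio of at least 0.6. The share was 62.7% for genes bound in oligodendrocytes only (80.1% with a window) and 73.5% for genes bound in both OPCs and oligodendrocytes. It was 67.8% over all genes tested and 34.1% over all 27025 windows in the table, which include genes not measured here. The comparisons with genes bound in both, all genes tested and unlisted genes are void, because fewer than 80% of each (79.3%, 79.5% and 78.1%) had a window. Within the genes bound in OPCs only, median CpG counts were 25 for those that rose, 22 for those that fell and 23 for those that did not pass. The motif TTTGAA, read on both strands and the core of an element of late cell cycle promoters, was found in 15.9% of windows of genes that rose and 9.69% of those that fell, against 9.57% of those that did not pass. TTCCCGC, a form of the E2F motif, was found in 14.9%, 9.44% and 8.97%. The E-box CAGCTG was found in 13.9%, 18.4% and 13.1%, and CCAAT in 46.3%, 41.9% and 43.9%. ACAAAG was found in 11.7%, 12.6% and 12.7%, and CACGTG in 10.7%, 9.93% and 10.4%. GGGCGG was found in 74.9%, 69.2% and 69.5%, and TATAAA in 5.85%, 3.39% and 6.45%. Over all genes tested, TTTGAA was found in 11.5%, TTCCCGC in 8.44%, CAGCTG in 14.9% and CCAAT in 38.6% of windows, with the same shortfall of windows, and over all 27025 windows the shares were 18.1%, 4.66%, 16.1% and 37.9%. Motifs were counted separately, wherever they lay in the window, and the check is void for S phase and mitosis genes, of which 77.5% had a window. These shares were not tested.

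By position, the genes bound in OPCs only made up 21.3% (chromosome 18) to 31.8% (chromosome 17) of the tested genes on each autosome and 9.65% on chromosome X, where they were 49 of 508. Their gene spans were short, with a median of 22.4 kb, close to the 18.6 kb of unlisted genes and against 92.1 kb for genes bound in both OPCs and oligodendrocytes and 56.9 kb for those bound in oligodendrocytes only. In the GENCODE M21 annotation, 126 pairs of genes bound in OPCs only start head to head within 1000 bases of each other. They hold 6.72% of those of the genes that could be located (5.91% for pairs of unlisted genes). Whether a single site put both genes of a pair on the list is not recorded. Both genes passed in 5 of these pairs, in 4 in the same direction, against 13 and 11 of 211 pairs of unlisted genes and 41 and 28 of all 642 pairs. Among them Ncapd2 rose by 0.71 and its neighbour Mrpl51, a mitochondrial ribosomal protein gene 100 bases away, by 0.20, and Dtl, a ubiquitin ligase adaptor that limits replication licensing, rose by 0.81 and Ints7, 92 bases away, by 0.11. These pairs were named after their values were seen.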

How the data were processed

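RNA was measured in 12 libraries, 5 Chd7iKO and 7 Control. The authors deposited a table of estimated counts per gene, with the log2 fold change and p-value of their own test. Per the submitters' processing notes, TopHat2, Bowtie, featureCounts and edgeR were used with build mm10, and per the labels' protocols libraries were made with a stranded mRNA kit. The peak caller and the rule from site to gene are not given in the sources used here. Lists of bound genes hold symbols only, as deposited, and a deposited sheet of ontology terms was not used because its background is not given.

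Estimated counts (1.76% of values, 2973, were not whole) were rounded. Every deposited gene passed edgeR's filter on low counts (lowest mean 20.8 counts). edgeR 4.0.16 in R 4.3.3 was fitted to all 14107 genes with TMM scaling and the quasi-likelihood test at default settings. Benjamini-Hochberg adjustment was over all genes (biological coefficient of variation 14.7%). A prior count of 2 was used for log2 CPM values only. DESeq2 1.42.0, limma 3.58.1, Python 3.11.15, pandas 2.3.3, SciPy 1.17.1 and matplotlib 3.10.9 were also used. The limma voom fit used quality weights for the libraries. Among the deposited gene names 12 had been turned into dates and stayed as they are.

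Symbols were matched without regard to case. Genes named are the 8 largest rises and falls past the threshold with a mean of at least 1 CPM, the 5 highest levels, up to 4 genes past the threshold of each of 19 lists by smallest p (all genes of the precursor, committed, myelin and lineage factor lists), and the smallest p-values in the deposited regulated, Chd8 and autism lists. The genes and lists were chosen with earlier results of these data known. Alternatives were other scalings, tools, filters and thresholds, a covariate of other cell types' markers (without mural and fibroblast markers), a replicate block and left-out libraries.

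Tested on simulated data for this comparison (14106 genes, 50 changed per fold), the fit recovered 20% of genes changed by 1.25-fold, 60% by 1.5-fold, 80% by 2-fold and 98% by 4-fold, and 3.73% of its calls were false. Far fewer genes were changed there than the 29.5% that passed in the data, so these shares need not hold for the data. All 31 pairs of replicates differed by more than counting noise (chi-square per degree of freedom of at least 9.14; correlations of log values 0.978 to 0.994). Promoter letters, gene positions and spans came from RefSeq GRCm38.p6, and the starts of head-to-head pairs from GENCODE M21 on the same build. The value of 1 S phase gene is not reported here.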

Additional observations from a re-analysis of the deposited data

Results flagged for a closer look

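Of 214 groups of libraries checked (91 genes and 16 list summaries, each in Chd7iKO and in Control libraries), 19 held a library whose gap to the nearest other, over the range of the group, was above the 95% critical value of Dixon's test. Chance gives about 1 in 20. In 14 of the 19 that library was Chd7iKO 1, in 3 Control 1 and in 2 Control 6.

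Chd7iKO 1 was above the other Chd7iKO libraries for Chst2 (307 CPM, others 138 to 187), Qk (2525, others 1946 to 2027), Eif4g2 (2214, others 2017 to 2061), Klf6 (219, others 102 to 126), Sox11 (110, others 89.7 to 95.4), Kcna2 (146, others 107 to 117), Smarca2 (179, others 145 to 154), Smarcd1 (189, others 155 to 161) and Nckap1 (605, others 572 to 581). It was below them for Fabp7 (694 CPM, others 954 to 1039), Matn4 (152, others 208 to 226) and Rrm2 (114, others 161 to 178). The mean level of the lineage transcription factors was 6.43 log2 CPM in Chd7iKO 1 (others 6.14 to 6.2), and that of the growth factor signalling genes 5.84 (others 5.69 to 5.71). Without Chd7iKO 1, 548 of the genes bound in OPCs only were higher and 543 lower.

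Control 1 was above the other Controls in the mean level of the Notch, BMP and Wnt genes (6.01 log2 CPM, others 5.66 to 5.76), the growth factor signalling genes (5.8, others 5.58 to 5.67) and the guidance genes (5.67, others 5.45 to 5.53). Control 6 was above the other Controls for Gtse1 (21.9 CPM, others 12.7 to 15.7) and below them for Grik5 (215, others 253 to 278). What sets these libraries apart was not tested.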

How the results depend on the processing

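No gene bound in OPCs only passed in opposite directions in the main fit and an alternative. Genes that passed in only 1 of the 2 fits were checked for direction among the 91 named genes only, where none turned. Against 505 higher and 495 lower, limma voom gave 819 and 825, a threshold of 0.01 gave 249 and 222, a fold of at least 1.5 gave 180 and 51, the covariate of other cell types' markers gave 140 and 126 (of which 134 and 117 are among the 505 and 495), and the fit without Chd7iKO 4 and 5 gave 215 and 185; the causes were not tested. With single libraries left out, counts ran from 331 (without Chd7iKO 5) to 562 (without Control 1) higher and from 309 (without Chd7iKO 5) to 546 (without Control 6) lower. DESeq2's test gave 570 and 592. The median log2 fold change of -0.003 was 0.012 with upper quartile scaling and 0.029 with library totals, where the median of all genes was 0.016 and 0.033, and -0.008 to 0.005 with single libraries left out. The small Chd7 difference of 0.037 turned to -0.024 without Control 3, -0.022 without Chd7iKO 1 and -0.059 without Controls 3 and 6, within a range of -0.024 to 0.096 over single libraries left out (exact permutation p of 0.436 to 0.976). Unlisted shares matched in 5 or 20 level bins were 15.5% higher in both and 13.9% and 14% lower.

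Replicate numbers did not pair the libraries: same-numbered libraries deviated from their group means with correlations of 0.376, -0.12, 0.084, -0.127 and -0.177. The fit with the replicate block gave 600 higher and 595 lower, of which 455 and 437 are among the 505 and 495. Of the 91 named genes, 32 lost their call with the covariate and 20 without Chd7iKO 4 and 5. Some of the 32, such as Ptprc and Vwf, are themselves markers within the covariate. Small changes can be missed: on simulated counts with few changed genes, 20% of those changed 1.25-fold were recovered. In the data 29.5% of all genes passed, so the adjusted threshold was less strict there and the share missed is not known. The effect of depth was not tested.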
